A study of Mus musculus with 24 samples.

Results

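The genes described here are 10 transcription factors of the caudal embryo, the early mesoderm and the heart: *Cdx1*, *Cdx2*, *Cdx4*, *T*, *Eomes*, *Mixl1*, *Mesp1*, *Tbx6*, *Nkx2-5*, and *Hand1*. They were picked by gene symbol, with earlier results of these data known, and all 10 were found among the 26264 genes of the count table. PolyA RNA was sequenced from 2 mouse embryonic stem cell (ESC) lines, BAP1-AID and UTX-AID, with 2 replicates in each of 12 groups. The cells were kept without IAA (−IAA) or with IAA (+IAA) and were collected at 0, 3, or 6 h of retinoic acid (RA). In the +IAA groups IAA was added 2 h ahead of RA, so the time since IAA rose with the time in RA. Within that arm the effects of these 2 times cannot be told apart. IAA is an auxin, which triggers the breakdown of a protein that carries the auxin-inducible degron (AID) tag. In BAP1-AID cells the tag sits on BAP1, a deubiquitinase of histone H2A, and in UTX-AID cells on UTX (gene *Kdm6a*), a demethylase of histone H3. All groups of a line, the −IAA controls included, therefore carried the tagged protein and the stably expressed auxin receptor TIR1. The degron was placed at the carboxyl end of BAP1 or the amino end of UTX in cells selected as clones, with the number of clones used for RNA not stated. Cells were cultured in serum with leukemia inhibitory factor, which was left out during RA. An effect of RA and one of losing this factor cannot be told apart, nor can the identity of a line and the preparation of its 12 libraries. No separate treatment of the −IAA cells was described. The labels do not say whether replicates came from separate cultures, so p-values measure only the spread between these libraries.

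Cdx proteins are homeodomain factors that bind Hox genes and pattern the posterior body axis, and *Cdx1* is a textbook direct target of RA. *T* (brachyury) and *Eomes* are T-box factors of the primitive streak, the site where epiblast cells become mesoderm and endoderm, and *Mixl1* is a homeodomain factor of the same cells. *Mesp1* marks the earliest heart precursors, *Tbx6* the presomitic mesoderm, and *Nkx2-5* and *Hand1* the forming heart. *Cdx2*, *Eomes*, and *Hand1* are also known as factors of the trophectoderm, the outer layer of the blastocyst.

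For a look at the regions that precede these genes, the 250 bases before the start of each canonical transcript (GENCODE M39, GRCm39) were searched on both strands for 5 short motifs, in the 10 members and in all 21751 protein-coding genes. AGGTCA is a single site of RA receptors, and a variant of it is AGTTCA. TCF/LEF factors, which act for Wnt signals, bind CTTTGA. POU factors such as Oct4 bind the octamer ATGCAAAT, and a TATA box has the core TATAAA. The octamer and TATAAA were added after the sequences of the members had been seen. AGGTCA was in 0 of the 10 regions and in 13.1% of all. AGTTCA was in 2 (*T* and *Mesp1*) and in 12.1% of all, and CTTTGA in 4 (*Cdx1*, *T*, *Mixl1*, and *Nkx2-5*) and in 14.1% of all. The octamer was in 2, both of them Cdx genes, and in 1.49% of all regions. It began 115 bases before the start of *Cdx2* and 93 bases before that of *Cdx4*. TATAAA was in 2 (*Cdx1* and *Tbx6*) and in 11.9% of all, and no match overlapped another. The regions shown are those of *Cdx2* and *Cdx4*, which share the octamer (capitals), that of *Tbx6*, with TATAAA in capitals, and that of *Eomes*, which held no motif. *Tbx6* and *Eomes* are shown because their levels differed between the lines already at 0 h. They lie at chr5:147244092-147244341 (minus strand), chrX:102364754-102365003, chr7:126380405-126380654, and chr9:118307030-118307279 (all plus strand), and overlap no annotated exon. Each runs 5′ to 3′ on the strand of its gene.

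Cdx2: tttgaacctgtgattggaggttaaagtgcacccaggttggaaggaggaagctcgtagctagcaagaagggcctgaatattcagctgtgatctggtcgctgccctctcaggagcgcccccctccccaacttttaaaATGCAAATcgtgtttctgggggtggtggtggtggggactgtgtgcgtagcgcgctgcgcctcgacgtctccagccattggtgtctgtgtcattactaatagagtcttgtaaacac

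Cdx4: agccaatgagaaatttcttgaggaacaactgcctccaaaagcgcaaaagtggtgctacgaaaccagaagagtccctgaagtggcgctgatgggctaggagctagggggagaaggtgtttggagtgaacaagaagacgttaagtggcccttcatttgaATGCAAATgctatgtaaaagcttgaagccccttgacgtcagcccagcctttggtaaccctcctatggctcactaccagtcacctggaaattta

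Tbx6: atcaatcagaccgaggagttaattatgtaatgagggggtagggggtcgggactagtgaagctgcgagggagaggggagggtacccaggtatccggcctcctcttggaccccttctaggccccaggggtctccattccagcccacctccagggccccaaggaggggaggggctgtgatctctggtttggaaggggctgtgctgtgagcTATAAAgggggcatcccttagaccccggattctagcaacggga

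Eomes: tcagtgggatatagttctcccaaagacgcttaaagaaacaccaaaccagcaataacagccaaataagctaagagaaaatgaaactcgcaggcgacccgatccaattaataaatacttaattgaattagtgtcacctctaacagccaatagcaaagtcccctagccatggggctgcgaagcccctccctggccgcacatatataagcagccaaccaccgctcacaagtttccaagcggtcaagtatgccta

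The libraries held 42018795 to 54034789 counts in total (median 49836516). Levels are given as CPM (counts scaled to library size) after TMM scaling, and counts as deposited. The values were estimated from coverage, with 4 as the commonest value above 0, so single counts are not single reads. As a detection limit, 3 counts per library were used. The ESC marker *Pou5f1* stood at 792 to 1522 CPM in all libraries, and all 8 of 8 listed RA response genes rose by 6 h in each line and arm. Since the tag acts on the protein, the transcripts of *Bap1* and *Kdm6a* do not check the IAA arms. They stood at 93.3 to 105 CPM for *Bap1* in BAP1-AID and 93.5 to 125 CPM for *Kdm6a* in UTX-AID.

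Most members were close to the detection limit. In 8 of 10 the mean over the 24 libraries was below 1 CPM, a level that 12330 genes, or 46.9% of the table, exceeded. Only *Cdx1* (mean 1.26 CPM) and *Eomes* (mean 7.38 CPM) were above it. Divided by transcript length, the means were 1.999 CPM per kb for *Eomes*, 0.710 for *Cdx1*, 0.175 for *Tbx6*, and 0.163 for *T*, and *Mesp1* was lowest at 0.0186. After the filter on low counts 8 members were tested in BAP1-AID (not *Mesp1* and *Tbx6*), 8 in UTX-AID (not *Mesp1* and *Nkx2-5*), and 9 in the fit of all 24 libraries (not *Mesp1*). A member that passed the filter did so through the groups where it was high. A gene was called where the adjusted p was below 0.05 and the fold change above 2, that is, above 1 on the log2 scale.

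*Cdx1* was the one member called higher under RA. It lies on the minus strand at chr18:61151934-61169292 (GRCm39) and has 3 exons. In BAP1-AID −IAA the counts were 0 and 4 at 0 h, 71 and 44 at 3 h, and 118 and 115 at 6 h. In BAP1-AID +IAA they were 0 and 0, then 33 and 18, then 134 and 118. Every library at 3 h was above every library at 0 h, and every one at 6 h above those at 3 h. In UTX-AID −IAA the counts were 0 and 0 at 0 h, 85 and 68 at 3 h, and 182 and 170 at 6 h, and in UTX-AID +IAA 3 and 0, then 51 and 50, then 105 and 117. The order of the 3 time points was the same, with no overlap. With n = 2, groups can lie apart without a real difference, and the share of all genes without overlap was not counted. Here and below, a lack of overlap between groups is therefore a description only. At 6 h the mean level was 2.31 CPM ± 0.0900 (SD, n = 2) in BAP1-AID −IAA, 2.52 ± 0.163 in BAP1-AID +IAA, 3.67 ± 0.493 in UTX-AID −IAA, and 2.2 ± 0.3003 in UTX-AID +IAA.

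**Figure D1:**
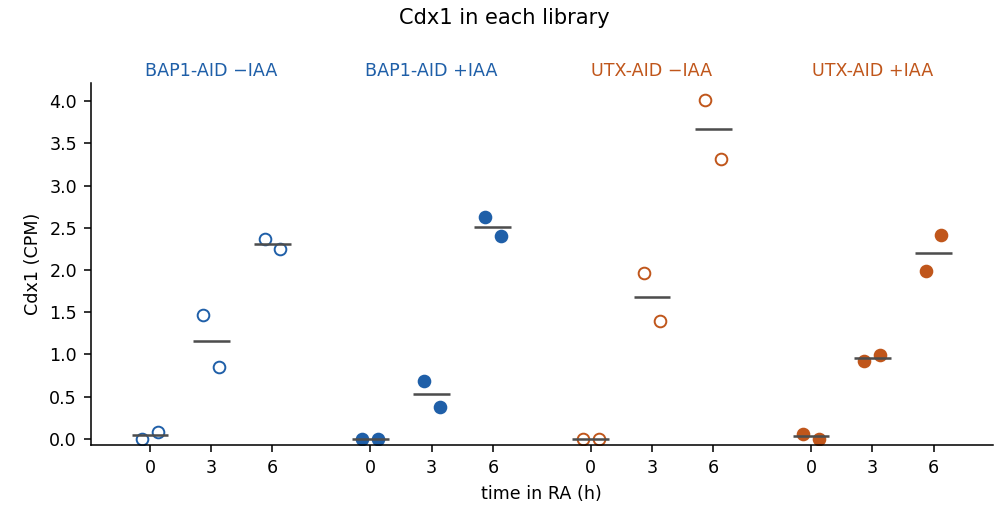
*Cdx1* in each library (CPM, linear axis) by hours in RA, for both lines without (open) and with IAA (filled). Bars are means of 2 libraries. All libraries at 0 h lie at or near 0, and the highest are those of UTX-AID −IAA at 6 h, with a mean of 3.67 CPM.

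*Cdx1* was called higher in all 8 comparisons of RA with 0 h, and in each of them edgeR called no other of the 8 members tested. DESeq2 also called *Cdx2* at 3 h in BAP1-AID +IAA. Over all genes tested in BAP1-AID, 2.25% were called at 3 h and 4.10% at 6 h without IAA, and 2.41% and 4.51% with IAA. In UTX-AID the shares were 1.51% and 1.91% without IAA and 1.26% and 2.0% with IAA. Because the 0 h groups were nearly empty, the fold cannot be given closely. Here and below, a fold given as a bound sets the mean of the higher group against 3 counts per library in a group at 0. Such a bound leaves out the spread of the 2 libraries in the higher group. Against the limit of 3 counts per library, *Cdx1* was at least 8.80-fold higher at 3 h, and 41.9-fold or more at 6 h, in BAP1-AID +IAA (adjusted p = 0.00311 and 8.78e-05, edgeR's quasi-likelihood test). In UTX-AID −IAA the bounds were at least 27.1-fold higher at 3 h and 59.1-fold higher at 6 h (adjusted p = 1.62e-05 and 2.10e-06). Where the 0 h libraries together held 4 counts (BAP1-AID −IAA), the ratio was 29.5 at 3 h (95% interval 11.2 to 110.2) and 59.2 at 6 h (22.8 to 219). Where they held 3 (UTX-AID +IAA), it was 32.6 (10.9 to 161) and 74.7 (25.2 to 365). These intervals are exact binomial ones that treat the estimated counts as single reads, which they are not. They also leave out the spread between libraries, and so may be too narrow. The adjusted p was 0.00223 and 0.000305 in the former group and 0.000250 and 1.44e-05 in the latter.

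From here on, the ± of a log2 difference is an approximate SE worked out from the F statistic of the test. *Cdx1* went on rising after 3 h in BAP1-AID, by 1.62 ± 0.38 on the log2 scale (mean of both arms, adjusted p = 0.0244). Of all genes, 0.599% were called there, *Cdx1* among them. The call was lost without 1 of 5 libraries, replicate 2 of +IAA at 3 h or any of the 4 at 6 h (adjusted p 0.0735 to 0.0990). In UTX-AID the difference of 6 h and 3 h was 1.16 ± 0.29 and missed the threshold (adjusted p = 0.0605, 0.117% of all genes called). It was called with DESeq2, with no filter on low counts, with the replicate number as a block, and without any 1 of the 4 libraries at 0 h. There 3 of 8 members had an unadjusted p below 0.05 with edgeR, and DESeq2 called 1 member.

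With IAA, *Cdx1* differed in the same direction at both RA times in UTX-AID, but no difference was called. At 3 h the −IAA libraries stood at 1.97 and 1.40 CPM, the +IAA libraries at 0.927 and 0.991 CPM, and at 6 h at 4.02 and 3.32 against 1.99 and 2.41 CPM. The arms did not overlap at either time, which with 2 libraries each is a description and not a test. The log2 difference was −0.81 ± 0.41 at 3 h (adjusted p = 0.581) and −0.73 ± 0.39 at 6 h (adjusted p = 0.825), and 0 of 8 members were called at either time (0.0430% and 0.0123% of all genes called). With edgeR 1 member had an unadjusted p below 0.05 at each time (*Eomes* at 3 h, *T* at 6 h), and DESeq2, which gave no adjusted p for 8 and 9 of the 10 members, called 0. In BAP1-AID the arms did not overlap at 3 h (1.47 and 0.850 against 0.686 and 0.372 CPM) or at 6 h (2.37 and 2.24 against 2.63 and 2.40 CPM), with opposite signs at the 2 times. The differences there were −1.13 ± 0.55 (adjusted p = 0.207) and 0.10 ± 0.50 (adjusted p = 0.946). An altered response, the RA change with IAA minus that without, was called for 0 of 8 members in BAP1-AID at 3 h and 6 h (0% and 0.0255% of all genes) and for 0 of 8 in UTX-AID (0.0123% and 0%). By the unadjusted p of edgeR 1 and 0 members of BAP1-AID were below 0.05, as were 1 and 1 of UTX-AID, and DESeq2 called 0 in each, with no adjusted p for 9 members in BAP1-AID. The member of UTX-AID with an unadjusted p below 0.05 was *Cdx1* at both times. For *Cdx1* this test rests on 0 h libraries at 0 to 4 counts, so its sign and size depend on which of them were at 0. Between the lines, its level at 6 h differed by 0.24 ± 0.34 on the log2 scale (UTX-AID minus BAP1-AID, adjusted p = 0.566).

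Of 12330 genes above 1 CPM, those most like *Cdx1* across the 24 libraries were *Hoxa4* (Pearson's r = 0.957 of log2(CPM + 0.5)), *Aqp3* (r = 0.936), and *Lgals9* (r = 0.935). These correlations are a description over libraries that share the RA time course.

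*Cdx2*, at chr5:147237615-147244091, and *Cdx4*, at chrX:102365004-102374815, both Cdx family members with 3 exons, were measured at up to 35 and 19 counts and were not called under RA by edgeR. DESeq2 called *Cdx2* lower at 3 h in BAP1-AID +IAA (adjusted p = 0.0404, against 0.105 with edgeR). *Cdx2* in BAP1-AID −IAA held 12 and 4 counts at 0 h, 19 and 11 at 3 h, and 25 and 9 at 6 h. With IAA it held 9 and 6, then 0 and 0, then 14 and 13. The +IAA group at 3 h was the one group at 0 among 12. In UTX-AID it held 0 and 4, 13 and 18, then 35 and 8 without IAA, and 4 and 0, 17 and 0, then 10 and 5 with IAA, and there the arms overlapped at all 3 times. Averaged over the times, 0 of 8 members were called for IAA in UTX-AID (0.135% of all genes). With edgeR 1 member, *Eomes*, had an unadjusted p below 0.05, and DESeq2 called 0, with no adjusted p for 8 members. In BAP1-AID *Cdx2* was called lower with IAA at 3 h, by at least 4.87-fold (adjusted p = 0.0296, 0.892% of all genes called), and averaged over the 3 times (adjusted p = 0.0358, 1.51% called), while at 6 h 0 of 8 members were called (1.61% of all genes; 0 had an unadjusted p below 0.05 with edgeR, and DESeq2 called 0, with no adjusted p for 8 members). With edgeR it was the one member called in these 2 comparisons, and the average includes the group at 0. In the average *Cdx1* missed the threshold with edgeR (adjusted p = 0.0765), and was called lower by DESeq2 (0.0461) and by edgeR without replicate 1 of −IAA at 0 h or replicate 2 of −IAA at 3 h.

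The IAA call for *Cdx2* was not stable. At 3 h it was lost with the correction for GC content and length (adjusted p = 0.0564), with all 24 libraries in one fit (0.0576), and DESeq2 gave no adjusted p for it. It held without replicate 1 or 2 of −IAA at 0 h and without replicate 2 of −IAA at 3 h or at 6 h, and was lost without any of the other 8 libraries. The averaged call was lost with the correction (0.0642), with 24 libraries (0.0909), and without 9 of 12 libraries, all but replicate 2 of each −IAA group (adjusted p 0.0728 to 0.114).

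*Cdx4* differed between the lines at 6 h. All 4 BAP1-AID libraries at 6 h were at 0, after 14 and 4 (−IAA) and 18 and 4 (+IAA) counts at 0 h and 6 and 0 (−IAA) and 3 and 0 (+IAA) at 3 h. The UTX-AID libraries held 6 and 14 at 0 h, 14 and 6 at 3 h, and 6 and 14 at 6 h without IAA, and 13 and 0, 6 and 9, then 19 and 0 with IAA. In BAP1-AID the counts were lower at later times in both arms, but the difference of 6 h and 0 h missed the threshold (adjusted p = 0.201 without and 0.179 with IAA). At 6 h *Cdx4* was called higher in UTX-AID (adjusted p = 0.0101), by at least 3.42-fold for the mean of the −IAA arm (6 and 14 counts). Without replicate 1 of UTX-AID +IAA at 6 h this call was lost (adjusted p = 1.00).

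*Eomes* (chr9:118307280-118315200, 6 exons) was the most abundant member, and was lower at 6 h of RA in BAP1-AID. In BAP1-AID −IAA it stood at 11.3 and 12.5 CPM at 0 h, 8.31 and 10.3 at 3 h, and 6.09 and 8.04 at 6 h. With IAA it stood at 11.3 and 15.4, then 10.6 and 10.1, then 5.95 and 7.73. Both arms gave the same order of times, and 6 h did not overlap 0 h. In UTX-AID −IAA the values were 6.34 and 4.23 at 0 h, 8.38 and 6.51 at 3 h, and 4.55 and 4.12 at 6 h, and with IAA 4.08 and 3.97, then 3.84 and 4.97, then 3.63 and 4.82. No such order was seen there, and all +IAA times overlapped.

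**Figure D2:**
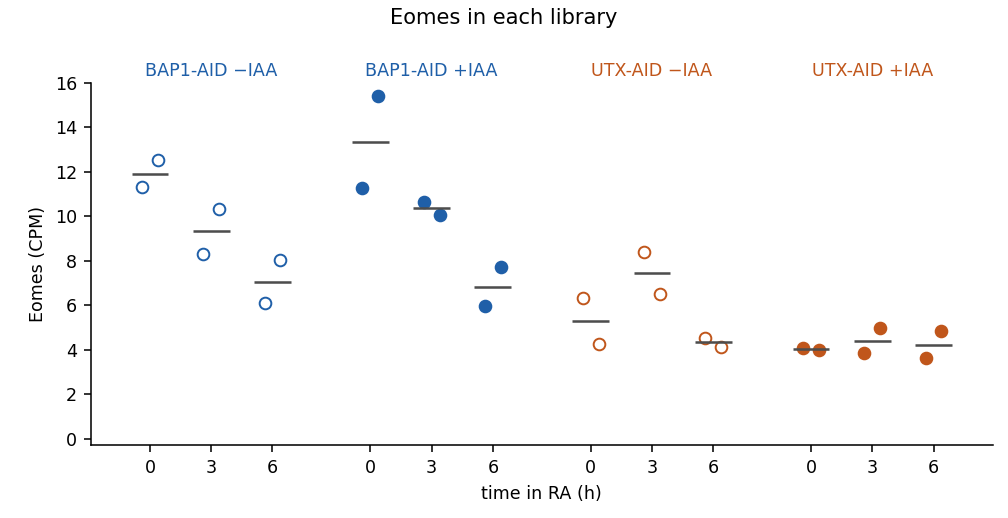
*Eomes* in each library (CPM, linear axis) by hours in RA, for both lines without (open) and with IAA (filled). Bars are means of 2 libraries. BAP1-AID falls from means of 11.9 and 13.3 CPM at 0 h to 7.06 and 6.84 at 6 h, and UTX-AID lies lower at 0 h, at 5.29 and 4.03.

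In BAP1-AID *Eomes* fell at 6 h by 0.73 ± 0.19 on the log2 scale without IAA (adjusted p = 0.0220) and by 0.94 ± 0.19 with IAA (adjusted p = 0.00483). It fell between 3 and 6 h by 0.50 ± 0.14 (adjusted p = 0.0450). These differences passed the p threshold but not the limit on fold, and so were not calls. Without the fold limit 15.9%, 15.4%, and 8.14% of all genes would have been called in these comparisons. At 6 h without IAA the p was lost without replicate 1 or 2 of −IAA at 0 h or replicate 1 of −IAA at 6 h (adjusted p 0.0547 to 0.174), and with IAA without replicate 2 of +IAA at 0 h or replicate 1 at 6 h (0.0569 and 0.0580). The difference of 6 and 3 h lost its p with no filter on low counts (0.0524), with the correction for GC content and length (0.0588), and without any of 6 libraries: replicates 1 and 2 of −IAA at 0 h, replicate 1 of −IAA at 6 h, replicates 1 and 2 of +IAA at 3 h, and replicate 1 of +IAA at 6 h (0.0550 to 0.170). In UTX-AID the 6 h differences were −0.27 ± 0.24 and 0.10 ± 0.24 (adjusted p = 0.655 and 0.915). The response at 6 h differed between the lines by 0.75 ± 0.22, which missed the threshold (adjusted p = 0.0730). In that comparison 0 of 9 members were called, against 0.648% of all genes. There 3 members (*Cdx4*, *T*, and *Eomes*) had an unadjusted p below 0.05, and DESeq2 called 0, with no adjusted p for 2 members.

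*Eomes* was lower in UTX-AID than in BAP1-AID before RA. At 0 h the mean was 11.9 CPM ± 0.852 (SD, n = 2) in BAP1-AID −IAA and 13.3 ± 2.92 with IAA, against 5.29 ± 1.49 and 4.03 ± 0.0759 in UTX-AID. The groups did not overlap, and the log2 difference was −1.45 ± 0.16 (adjusted p = 2.43e-08). This was 1 of 2 members called of 9 tested in this comparison, in which 23.2% of all genes were called. At 6 h the difference was −0.70 ± 0.16 (adjusted p = 0.000485), below the limit on fold, where 62.1% of all genes had an adjusted p below 0.05. Corrected for GC content and length it was −0.36 (adjusted p = 0.0512). With IAA in UTX-AID, the log2 difference of *Eomes* at 3 h was −0.76 ± 0.23 (adjusted p = 0.251), not a call. The genes most like *Eomes* over the 24 libraries were *Fam169b* (r = 0.923), *Arhgef28* (r = 0.921), and *Nid2* (r = 0.910). Within the 12 UTX-AID libraries these r were 0.753, 0.576, and 0.659.

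*T* (chr17:8653255-8661328, 8 exons) was higher in BAP1-AID than in UTX-AID at 6 h and was not called under RA. In BAP1-AID −IAA it held 13 and 3 counts at 0 h, 29 and 49 at 3 h, and 11 and 26 at 6 h. With IAA it held 36 and 11, then 33 and 32, then 34 and 43. The 3 h values without IAA were above those at 0 h (log2 difference 2.32 ± 0.80, adjusted p = 0.125) and at 6 h, and the times with IAA overlapped. In UTX-AID it held 7 and 4, 4 and 17, then 9 and 7 without IAA and 6 and 3, 15 and 8, then 0 and 0 with IAA. The one group at 0 was UTX-AID +IAA at 6 h. At 6 h *T* was called lower in UTX-AID (adjusted p = 0.000208), by at least 12.998-fold in the +IAA arm. In the −IAA arm the means were 0.168 CPM ± 0.0438 (SD, n = 2) in UTX-AID and 0.364 ± 0.202 in BAP1-AID. It was 1 of 3 members called of 9 in this comparison, with *Cdx4* and *Tbx6*, against 22.5% of all genes. At 0 h the difference was −1.41 ± 0.72 (adjusted p = 0.0963), which turned into a call without replicate 2 of BAP1-AID −IAA at 0 h. In the arms of UTX-AID at 6 h, the counts of 9 and 7 against 0 and 0 gave no call (adjusted p = 0.688).

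*Tbx6* (chr7:126380655-126384732, 8 exons) showed the reverse. In BAP1-AID −IAA it held 0 and 6 counts at 0 h, 5 and 8 at 3 h, and 4 and 10 at 6 h, and with IAA 0 and 4, 7 and 8, then 0 and 0. In UTX-AID −IAA it held 29 and 48, 9 and 12, then 16 and 31, and with IAA 44 and 17, 16 and 21, then 35 and 31. Every UTX-AID library was above every BAP1-AID library at 0 h and at 6 h. At 0 h *Tbx6* was called higher in UTX-AID, by 3.74 ± 0.91 on the log2 scale (adjusted p = 0.00113), and at 6 h (adjusted p = 0.000606), by at least 10.9-fold in the +IAA arm. In the −IAA arm at 6 h the means were 0.479 CPM ± 0.178 (SD, n = 2) in UTX-AID and 0.138 ± 0.0811 in BAP1-AID. Both calls held under every alternative run for the lines and without any of the 24 libraries. Of these alternatives, no minimum fold could not lose a call, and the fit of all 24 libraries was the main one here. Under RA in UTX-AID −IAA it stood lower at 3 h than at 0 h in both libraries (log2 difference −1.78 ± 0.70, adjusted p = 0.216), and it was not called in any RA comparison of that line.

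*Mixl1* (chr1:180520608-180524599, 2 exons) stayed between 0 and 31 counts and was called nowhere. In BAP1-AID it held 4 to 12 counts in the 6 −IAA libraries and 7 to 19 in the 6 with IAA. In UTX-AID −IAA it held 13 to 31, and with IAA 0 to 19, with a 0 in 1 library at 0 h and 1 at 6 h. *Mesp1* (chr7:79441989-79443536, 2 exons) was at 0 in 18 of 24 libraries and reached 6 counts at most. In UTX-AID +IAA all 6 libraries were at 0, which allows up to 3 counts in each. It did not pass the filter on low counts in any comparison, and its direction was not detectable at this depth.

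The heart factors gave no called difference in the comparisons that were run. *Nkx2-5* (chr17:27057638-27060565, 2 exons) was at 0 in 4 of 12 BAP1-AID libraries and in 8 of 12 UTX-AID libraries, with 15 counts at most. At 6 h it held 0 and 10 (−IAA) and 9 and 0 (+IAA) counts in BAP1-AID and 0 in all 4 UTX-AID libraries, and the difference missed the threshold (adjusted p = 0.0653). *Hand1* (chr11:57719531-57722973, 2 exons) held 3 and 0, 0 and 3, then 4 and 0 counts in BAP1-AID −IAA and 13 and 13, 6 and 0, then 0 and 11 with IAA. In UTX-AID it held 3 and 29, 13 and 11, then 9 and 18 without and 13 and 23, 12 and 4, then 6 and 13 with IAA. At 0 h in BAP1-AID the arms did not overlap, but the IAA difference at 0 h alone was not tested. Averaged over times, which includes the later ones, the IAA difference of *Hand1* was 1.82 ± 1.28 (adjusted p = 0.301).

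**Figure D3:**
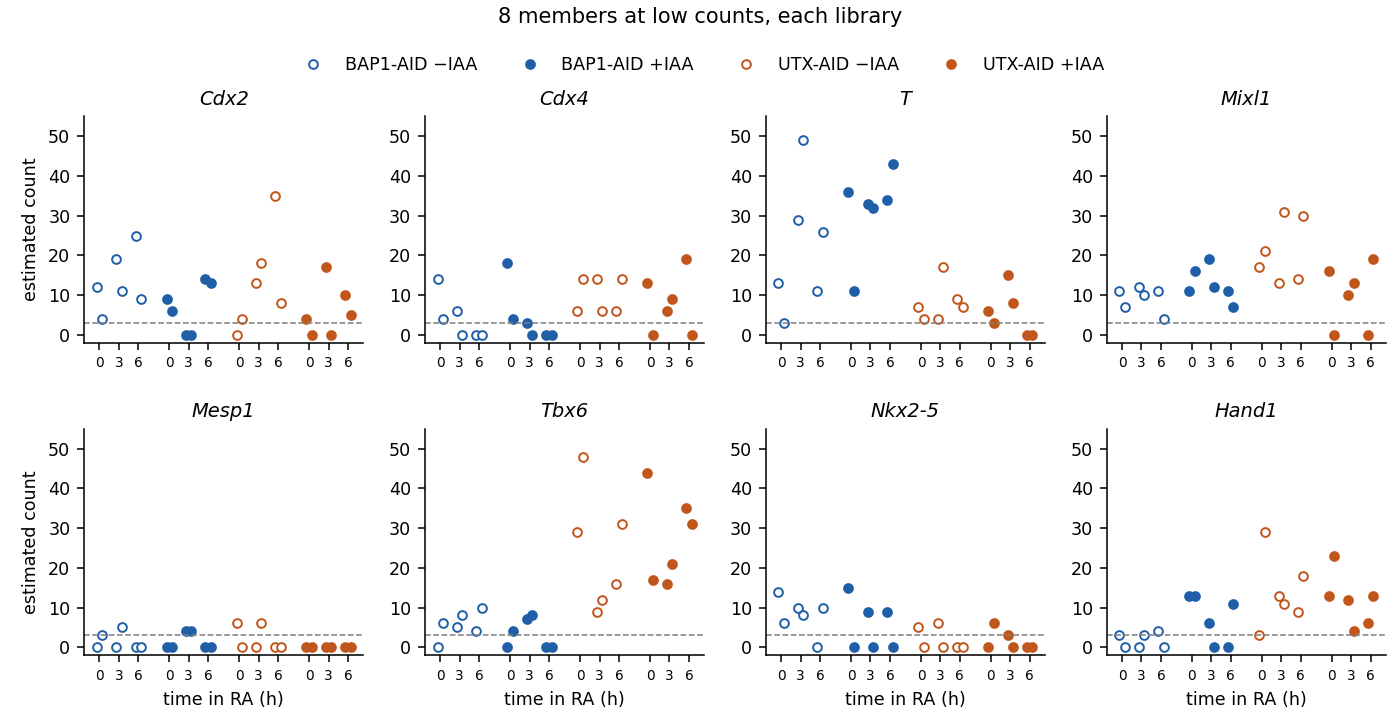
Estimated counts of the 8 members with a mean below 1 CPM, in each library, by hours in RA (0, 3, 6) for BAP1-AID (blue) and UTX-AID (orange), without (open) and with IAA (filled). The dashed line marks 3 counts. *Tbx6* lies higher in UTX-AID (9 to 48 counts) than in BAP1-AID (0 to 10), and *Cdx4* is at 0 in BAP1-AID at 6 h.

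Other genes of the same tissues were counted in lists at 6 h against 0 h, by edgeR. Of all genes, 4.10% were called in this comparison in BAP1-AID −IAA, 4.51% in BAP1-AID +IAA, 1.91% in UTX-AID −IAA, and 2.0% in UTX-AID +IAA. With 5 to 11 genes tested in a list, a count of 0 is close to these shares. A count of 1 lies above them as a share of the list, but rests on a single gene. Among 8 caudal genes, *Wnt8a*, a Wnt ligand of the posterior embryo, rose in all 4 combinations of line and arm, and *Hoxb8*, a Hox gene of the trunk, in 3. In BAP1-AID −IAA *Wnt8a* went from 0.769 CPM ± 0.000554 (SD, n = 2) to 10.2 ± 0.954 (adjusted p = 1.28e-08) and *Hoxb8* from 0 in both libraries to 4.11 ± 0.418 (adjusted p = 6.82e-06). In UTX-AID −IAA *Hoxb8* reached 0.841 ± 0.278 (adjusted p = 0.0855). The list counted 2 of 6 tested genes in each BAP1-AID arm, 1 of 5 in UTX-AID −IAA, and 2 of 5 with IAA. The median log2 change of the tested genes was 0.15 and 0.77 in BAP1-AID without and with IAA, and 0.38 and 0.34 in UTX-AID, beside medians of all genes between −0.0026 and 0.016.

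Of the heart genes, *Gata6*, a zinc finger factor of heart and endoderm, and *Myl7*, an atrial myosin light chain, rose in BAP1-AID in both arms (2 of 11 tested, beside 4.10% and 4.51% of all genes), and *Actc1*, cardiac actin, fell with IAA. In UTX-AID *Myl7* alone of 7 tested was called, beside 1.91% and 2.0% of all genes. In BAP1-AID −IAA *Gata6* went from 0.294 ± 0.170 to 4.05 ± 0.391 CPM (adjusted p = 2.12e-05), and in UTX-AID −IAA from 0.603 ± 0.504 to 2.16 ± 0.0400 (adjusted p = 0.0517). The median log2 change of the tested heart genes in BAP1-AID was 0.43 without and −0.81 with IAA, of opposite sign, beside 0.016 and 0 for all genes.

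In the primitive streak list, *Fgf8* and *Wnt3*, ligands of the streak, fell in BAP1-AID −IAA (2 of 11 tested), *Fgf8* alone with IAA, and 0 of 9 were called in UTX-AID in either arm, where 1.91% and 2.0% of all genes were called. *Fgf8* went from 1.51 ± 0.291 to 0.434 ± 0.103 CPM (adjusted p = 0.0142) and *Wnt3* from 1.41 ± 0.176 to 0.288 ± 0.104 (adjusted p = 0.0381). Of the targets of Wnt/beta-catenin, the pathway known to act upstream of *T* and the Cdx genes in the embryo, *Lef1* fell in all 4 combinations, from 99.04 ± 7.35 to 24.9 ± 0.616 CPM in BAP1-AID −IAA (adjusted p = 2.02e-08). *Sp8* rose in BAP1-AID −IAA and *Axin2* fell in UTX-AID +IAA, and no other gene of this list was called. The filter left 7 of its 10 genes for the BAP1-AID fit and 9 for that of UTX-AID. Their median log2 change was −0.080 without and −0.19 with IAA for BAP1-AID, and −0.035 and −0.35 for UTX-AID. For all genes the medians lay from −0.0026 to 0.016. No gene of 12 in the paraxial list was called (BAP1-AID tested 7, UTX-AID 8), and in the lateral mesoderm and blood list the one call was *Etv2*, lower in BAP1-AID +IAA (of 9 tested there, and 0 of 8 in UTX-AID).

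**Figure D4:**
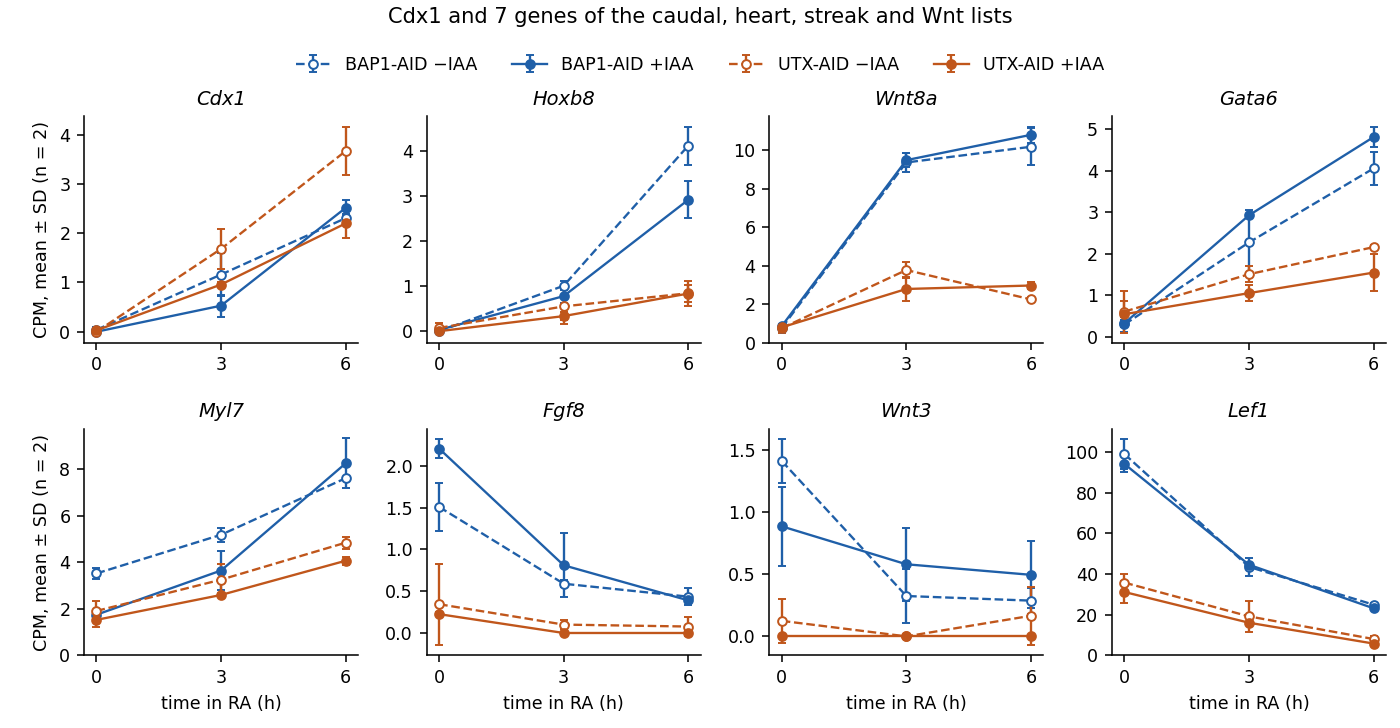
Mean CPM ± SD (n = 2, linear axes that differ between panels) of *Cdx1* and 7 genes of the caudal, heart, streak and Wnt lists at 0, 3, and 6 h of RA, for both lines without (open, dashed) and with IAA (filled). *Cdx1*, *Hoxb8*, *Wnt8a*, *Gata6*, and *Myl7* lie higher at 6 h than at 0 h, and *Lef1* lies lower, from 99.04 to 24.9 CPM in BAP1-AID −IAA.

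Markers of other cells were read in the same way, since some members mark more than mesoderm. Of 10 trophectoderm genes (8 tested), *Tfap2c* rose in all 4 combinations, in BAP1-AID −IAA from 1.96 ± 0.462 to 14.03 ± 0.124 CPM, and *Ascl2* fell in BAP1-AID −IAA. Their summed level was 43.3 to 63.5 CPM in BAP1-AID libraries and 30.2 to 42.5 CPM in UTX-AID libraries, while *Elf5*, a trophoblast stem cell factor, was at 0 in 10 of 12 and 8 of 12, and *Tpbpa*, a gene of later trophoblast, at 0 in all. The sum was lower in UTX-AID, as was *Eomes*, but its genes did not move alike. Between the lines at 0 h, *Ascl2*, *Fgfr2*, and *Gata3* were called lower in UTX-AID and *Krt8* higher, with a median of 6.17 against 1.96 CPM over the libraries. The part of these genes in the difference of *Eomes* was not tested. Of 8 primitive endoderm genes (7 tested) *Pth1r* rose in BAP1-AID in both arms and in UTX-AID +IAA. The sum of this list was 70.6 to 85.0 CPM in BAP1-AID and 48.7 to 63.2 CPM in UTX-AID. Of 8 fibroblast genes *Pdgfrb* rose in the same 3 combinations, and *Thy1* fell in BAP1-AID in both arms. Of the 8 ESC identity genes, edgeR called 0 at 6 h against 0 h in any combination. Between the lines, *Nanog* and *Zfp42*, factors of naive ESCs, were called higher in UTX-AID at 0 h and at 6 h. Their medians over the libraries were 394 against 138 CPM and 492 against 162 CPM. Of all genes, 23.2% and 22.5% were called between the lines at these times. *Pou5f1*, of the same list, lay the other way without overlap, with medians of 865 CPM in UTX-AID and 1294 CPM in BAP1-AID. The summed level of all 8 genes overlapped between the lines, at 3525 to 4399 CPM in BAP1-AID and 3729 to 4221 CPM in UTX-AID. The other genes of this list are not given by line here. The part of *Nanog*, *Zfp42*, and *Pou5f1* in the line differences of *Eomes*, *T*, and *Tbx6* was not tested. In these bulk libraries, fewer cells of a type and less RNA per cell cannot be told apart.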

How the data were processed

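PolyA RNA of 24 libraries, 2 in each of 12 groups, was sequenced. Per the labels and methods, the authors used HISAT2 2.2.1, SAMtools 1.19, StringTie 2.2.1, and deepTools 3.5.4 on mm39. The deposited values are estimated counts per gene, whole numbers not normalized. The annotation and strand setting are not given in the sources used here. Because they come from coverage, low values may not reflect single reads.

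Libraries held 42018795 to 54034789 counts. Low genes were removed by filterByExpr (minimum count 10, minimum total 15), which left 15695 genes in BAP1-AID, 16268 in UTX-AID, and 16816 in all 24 libraries. TMM factors and the quasi-likelihood test of edgeR 4.0.16 (R 4.3.3, limma 3.58.1) were applied to each line's 12 libraries, and to all 24 for comparisons of the lines. P-values were adjusted over all tested genes by Benjamini-Hochberg. Replicates correlated at r = 0.982 to 0.986. Alternatives were DESeq2 1.42.0, RLE factors, no filter, the replicate number as a block, a correction for GC content and length, all 24 libraries in one fit, no minimum fold, and each library left out. The comparisons of IAA at 3 and 6 h, and of the lines at 6 h, were added after the counts had been seen. All members were named in every comparison. Of each list, values were given for at most 4 called genes with the smallest adjusted p at 6 h without IAA. The members and lists were chosen with earlier results of these data known.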

Additional observations from a re-analysis of the deposited data

How the results depend on the processing

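The calls of *Cdx1* at 3 and 6 h against 0 h, and of *Eomes* (0 h), *Tbx6* (0 and 6 h), and *T* (6 h) between the lines held under every alternative run. No called difference of a member changed sign under an alternative. Differences that were not called could, such as that of *Eomes* at 6 h in UTX-AID −IAA, which ran from −0.55 to 0.06 on the log2 scale with 1 library left out. The number of members called moved as follows. With no minimum fold it was 2 at 6 h of RA in BAP1-AID −IAA, 2 in +IAA, and 2 for 6 h against 3 h. DESeq2 gave 2 at 3 h of RA in BAP1-AID +IAA (*Cdx1* and *Cdx2*), 2 for IAA in BAP1-AID averaged over times (*Cdx1* and *Cdx2*), 1 for 6 h against 3 h in UTX-AID, and 0 for IAA at 3 h in BAP1-AID, where it gave no adjusted p for 8 of the 10 members. For 6 h against 3 h in UTX-AID the count was 1 with no filter, 1 with the replicate block, and 1 with the GC and length correction and replicate block. Both IAA comparisons in BAP1-AID (averaged, and at 3 h) gave 0 with the GC and length correction, 0 with it and the replicate block, and 0 with all 24 libraries in one fit.

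Leaving out 1 library gave 1 to 2 members called at 6 h of RA in BAP1-AID +IAA. The 2 was seen without replicate 1 of +IAA at 0 h or replicate 2 of +IAA at 6 h, where *Eomes* was added. It gave 0 to 1 for 6 h against 3 h in BAP1-AID and 0 to 1 in UTX-AID, 0 to 2 for IAA averaged in BAP1-AID (2, *Cdx1* and *Cdx2*, without replicate 2 of −IAA at 3 h), and 0 to 1 for IAA at 3 h in BAP1-AID. Same-numbered libraries deviated together with r from −0.0538 to 0.280 in BAP1-AID and from 0.0274 to 0.256 in UTX-AID, so the number was not taken to pair them. The replicate block changed no other count. Members below 1 CPM rest on at most 49 estimated counts, and 2 libraries per group limit the precision.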
